A study of Mus musculus with 6 samples.

Results

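The 9 genes described here encode receptors of the ERBB family (Egfr, Erbb2 and Erbb3), ligands of the epidermal growth factor (EGF) type (Hbegf, Areg, Ereg, Tgfa and Nrg1) and Errfi1, an inhibitor of the receptors. They are 9 of the 43346 genes in a table of read counts from primary mouse embryonic fibroblasts, and all 9 were found there by their Ensembl identifiers. The set was chosen from the erastin-against-DMSO comparison itself, because the reads of Erbb3 went from the detection floor in DMSO to a measurable level in erastin. All values of the 9 genes in that comparison are therefore given as a description, and no p-value is drawn from them.

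The cells were C57BL/6 fibroblasts at passage 9, cultured with fetal bovine serum, nonessential amino acids, antibiotics and 2-mercaptoethanol, and exposed for 24 h to 3 µM erastin (3 libraries) or to DMSO, the solvent (3 libraries). Erastin is a small molecule that blocks cystine uptake through the cystine/glutamate antiporter and is used to bring about ferroptosis, a cell death that depends on iron and lipid peroxidation. The labels call the experiment triplicated and do not say whether the libraries of a group came from separate embryos or dishes, so p-values measure the spread between these libraries, which may be technical. Total counts ran from 13333911 to 20509970 per library, and 3 reads, used as the detection floor, were worth 0.14 to 0.234 CPM (reads of a gene relative to the scaled library total); this floor covers counting error only. In each of the 6 pairs of libraries within a group the counts differed by more than sampling noise (chi-square per degree of freedom 11 to 19.2), so each library was counted as 1 replicate.

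ERBB receptors are tyrosine kinases of the cell surface that pair up when a ligand binds and then signal through RAS and the ERK kinases and through PI3 kinase. EGFR binds the ligands of Hbegf, Areg, Ereg and Tgfa. ERBB2 has no known soluble ligand and acts as a partner, and ERBB3 has little kinase activity of its own, binds neuregulins and recruits PI3 kinase when paired. The ligands are made as membrane proteins and are released by metalloproteases of the ADAM family. Transcription of several ligands and of Errfi1 is itself raised by ERK signalling, which makes the system a loop with positive and negative arms.

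Promoter windows of RefSeq, build GRCm38.p6, were held for 5 of the 9 genes (Egfr, Erbb2, Areg, Tgfa and Errfi1, the last with 2 starts), each covering the 250 bases before a transcription start. They are shown for Areg and for the second start of Errfi1, since these are the windows of members with a match to the cyclic AMP response element (CRE), the letters TGACGTCA, bound by factors of the CREB and ATF families. The Areg window lies at chr5:91139349-91139598 (plus strand). The Errfi1 window lies at chr4:150854820-150855069 (plus strand), inside the annotated span of Errfi1. Capitals mark the CRE and the TATA box TATAAA, and both windows read 5′ to 3′ toward the start.
Areg: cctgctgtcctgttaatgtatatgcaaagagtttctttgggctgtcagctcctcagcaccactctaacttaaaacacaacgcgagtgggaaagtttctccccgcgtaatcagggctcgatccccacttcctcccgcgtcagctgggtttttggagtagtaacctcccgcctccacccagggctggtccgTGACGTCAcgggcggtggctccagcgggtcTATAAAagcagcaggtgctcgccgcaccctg
Errfi1: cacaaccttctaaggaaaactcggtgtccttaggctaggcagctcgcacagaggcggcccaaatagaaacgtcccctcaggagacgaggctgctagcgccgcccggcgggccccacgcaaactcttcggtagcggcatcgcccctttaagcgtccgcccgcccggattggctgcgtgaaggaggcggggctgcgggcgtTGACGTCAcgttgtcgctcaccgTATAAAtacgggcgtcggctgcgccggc

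In both windows the CRE stood upstream of a TATA box, with its first base 61 bases before the start in Areg and 51 bases before it in Errfi1. The TATA box began 31 and 28 bases before the start. The CRE reads the same on both strands. It was found in 2 of the 6 windows of the members and in 1.55% of all 32851 mouse windows of this length, and TATAAA, searched on both strands, in 2 of the 6 and in 12.4% of all. The AP-1 site TGANTCA and the antioxidant response element core TGACNNNGC, also searched on both strands, had no match in the 6 windows and matches in 6.75% and 10.2% of all windows. The CRE begins with the letters TGAC of the antioxidant response element core and TGA of the AP-1 site, but none of the 6 windows held the CRE together with a full match to either.

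Of the 9 genes, 7 were called (an adjusted p-value over all genes of less than 0.05 in edgeR's quasi-likelihood test), 6 of them higher with erastin and 1 lower. Among all 14000 genes tested 43.1% were called, 21.6% higher and 21.5% lower. The same 7 genes had no overlap between the 3 erastin and the 3 DMSO libraries, as had 52.5% of all genes tested. Since the comparison also chose the set, nothing is read from these counts. The median log2 fold change (erastin over DMSO) was 1.54 over the 9 genes and -0.0014 over all genes tested.

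**Figure D1:**
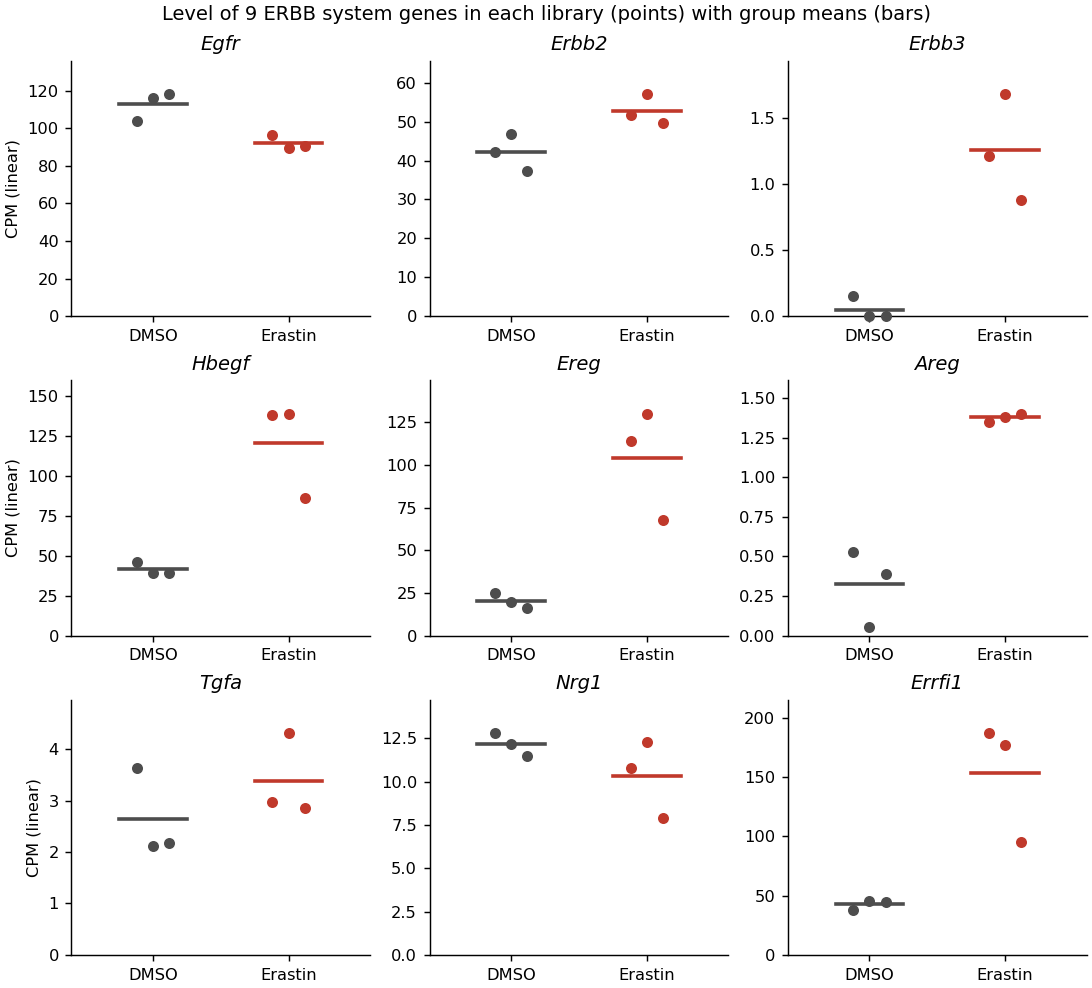
Level of each gene in CPM on a linear axis from 0, with 1 point per library and a bar at the group mean (3 DMSO in grey, 3 erastin in red). The erastin points of Erbb3, Hbegf, Ereg, Areg, Errfi1 and Erbb2 lie above all DMSO points, those of Egfr lie below them, and Tgfa and Nrg1 overlap.

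Among the receptors, the 2 abundant ones differed little between treatments and in opposite directions. Egfr (ENSMUSG00000020122.12, chr11:16752203-16918158 in GRCm38, plus strand), the receptor of EGF itself, stood at 104, 116 and 118 CPM in DMSO and at 96.2, 89.5 and 90.5 CPM in erastin libraries. All erastin values were below the lowest DMSO value, and the means were 113 ± 7.32 and 92.1 ± 3.64 CPM (SD, n = 3 each). The fitted log2 fold change was -0.29 (SE 0.08). With libraries scaled by total count alone it was -0.22 and the gene was no longer called.

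Erbb2 (ENSMUSG00000062312.5, chr11:98412470-98437716, plus strand), the partner receptor without a known soluble ligand, had 42.3, 46.9 and 37.3 CPM in DMSO and 51.8, 57.0 and 49.7 CPM with erastin. The groups did not overlap, though the highest DMSO and the lowest erastin library were close. The means were 42.2 ± 4.83 and 52.8 ± 3.76 CPM (SD, n = 3 each), a log2 fold change of 0.32 (SE 0.11). Its call was lost without DMSO replicate 1 (0.32), DMSO replicate 3 (0.24), erastin replicate 1 (0.34) or erastin replicate 2 (0.27), and with upper-quartile scaling (0.27). The exons of Erbb2 share 9 bases with Mien1 on the opposite strand.

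Erbb3 (ENSMUSG00000018166.8, chr10:128567523-128589652, minus strand) encodes the neuregulin receptor with an impaired kinase. DMSO replicate 1 held 2 reads of it and DMSO replicates 2 and 3 held 0, while the erastin libraries held 26, 28 and 17. In CPM this was 0.151, 0 and 0 against 1.21, 1.68 and 0.882. Every DMSO library was below the floor of 3 reads and every erastin library was well above it, so the gene was detected in the erastin libraries alone by that measure.

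The summed reads of Erbb3, 71 in erastin and 2 in DMSO, gave a ratio of 27.3 after scaling, with an exact (Clopper-Pearson) 95% interval of 7.27 to 229 that covers counting error only. The fitted log2 fold change of 4.56 (SE 1.28) depended on how the near-empty DMSO libraries were handled. It was 3.05 with a prior count of 2 in place of the default of edgeR, and 7.48 without DMSO replicate 1, the only DMSO library with reads. In the other 5 fits that left out a library it ran from 3.91 to 4.75. Even in erastin libraries Erbb3 stayed scarce, at 0.209 ± 0.0664 CPM per kb of exon (SD, n = 3), against 8.13 ± 0.321 for Egfr and 10.1 ± 0.722 for Erbb2 on the same scale.

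The fourth receptor, Erbb4, which also binds neuregulins, had 0, 4 and 6 reads in DMSO and 9, 23 and 20 in erastin libraries. In CPM the groups overlapped. The ratio of summed reads after scaling was 3.99 (exact 95% interval 2.01 to 8.81, counting error only). The gene did not pass the filter on low counts, so it was not tested. It was tested in 5 of the alternative fits, the one with no filter and 4 that left out a library, and was called in 1 of them, without DMSO replicate 3 (log2 fold change 2.86, edgeR adjusted p = 0.0448). In the other 4 its adjusted p-value was 0.0869 to 0.232.

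As shares of the summed receptor level per kb of exon, Egfr made up 55.1% ± 3.47 in DMSO and 43.9% ± 2.41 in erastin libraries, and Erbb2 44.8% ± 3.53 and 54.6% ± 1.98 (SD, n = 3 each). Egfr was thus the larger share in every DMSO library and Erbb2 in every erastin library. The share of Erbb3 was 0.825% to 1.45% with erastin and at most 0.145% in DMSO. That of Erbb4 was 0.182% to 0.58% with erastin and 0% to 0.215% in DMSO, with overlapping groups. The receptor sum itself was 18.1 ± 1.04 and 18.6 ± 0.746 CPM per kb (SD, n = 3 each).

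Of the ligand genes in the set, Hbegf, Ereg and Areg differed more than Egfr and Erbb2, all with more reads with erastin. Tgfa and Nrg1 did not and were not called. Hbegf (ENSMUSG00000024486.5, chr18:36504927-36515805, minus strand) encodes heparin-binding EGF-like growth factor, a ligand of EGFR and ERBB4. Its level was 46.0, 39.0 and 39.4 CPM in DMSO and 138, 139 and 85.9 CPM with erastin. The DMSO libraries lay close together, and the erastin libraries were well above them, with replicate 3 lowest. The means were 41.5 ± 3.94 and 121 ± 30.4 CPM (SD, n = 3 each), a ratio of 2.92 and a log2 fold change of 1.54 (SE 0.15).

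Ereg (ENSMUSG00000029377.4, chr5:91074622-91093646, plus strand), which encodes epiregulin, a ligand of the same receptors, had 25.2, 19.8 and 16.4 CPM in DMSO and 114, 130 and 67.7 CPM with erastin. Replicate 3 was again the lowest erastin library and still far above every DMSO library. The means of 20.5 ± 4.41 and 104 ± 32.6 CPM (SD, n = 3 each) gave a ratio of 5.09 and a log2 fold change of 2.35 (SE 0.20). An antisense gene, Gm19610, shares 141 of the 4128 exonic bases of Ereg, and no counts for it were found among the deposited values.

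Areg (ENSMUSG00000029378.4, chr5:91139599-91148432, plus strand), which encodes amphiregulin, a ligand of EGFR, was scarce. It had 7, 1 and 5 reads in DMSO and 29, 23 and 27 with erastin, or 0.529, 0.0554 and 0.389 against 1.35, 1.38 and 1.40 CPM. The erastin libraries agreed closely and all lay above the DMSO libraries, which scattered around the floor. The log2 fold change was 2.12 (SE 0.73), and the ratio of summed reads after scaling was 4.67 (exact 95% interval 2.58 to 9.15, counting error only). The call was lost without DMSO replicate 2, the lowest library (1.57), and without erastin replicate 1 (2.12), 2 (2.12) or 3 (2.11).

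Ereg and Areg are neighbours, 45952 bases apart on chromosome 5, and lie with the ligand genes Epgn (epigen) and Btc (betacellulin) in a stretch of 375531 bases. Epgn and Btc were scarce. Epgn had 5 reads in erastin replicate 2 and 0 in the other 5 libraries. Btc had 14, 8 and 11 reads in DMSO and 33, 15 and 13 with erastin, with overlapping groups (log2 fold change 0.42, SE 0.63, edgeR adjusted p = 0.621).

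Tgfa (ENSMUSG00000029999.10, chr6:86195223-86275719, plus strand), which encodes transforming growth factor alpha, a ligand of EGFR, had 3.63, 2.11 and 2.18 CPM in DMSO and 2.98, 4.31 and 2.85 CPM with erastin. The groups overlapped and the gene was not called (log2 fold change 0.36, SE 0.39). Nrg1 (ENSMUSG00000062991.6, chr8:31814551-32884029, minus strand), which encodes neuregulin 1, the ligand type that ERBB3 binds, had 12.8, 12.2 and 11.5 CPM in DMSO and 10.8, 12.3 and 7.88 CPM with erastin. These groups overlapped too, with a log2 fold change of -0.24 (SE 0.20), and Nrg1 was not called. It has 18 annotated transcripts, which a count per gene cannot tell apart.

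The remaining ligand genes were near the floor. Reads per library ran from 1 to 11 for Egf, from 1 to 17 for Nrg2, from 4 to 12 for Nrg3 and from 0 to 1 for Nrg4. Of the 7 family genes outside the set (Erbb4, Egf, Btc, Epgn, Nrg2, Nrg3 and Nrg4), Btc alone passed the filter, and it was not called.

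**Figure D2:**
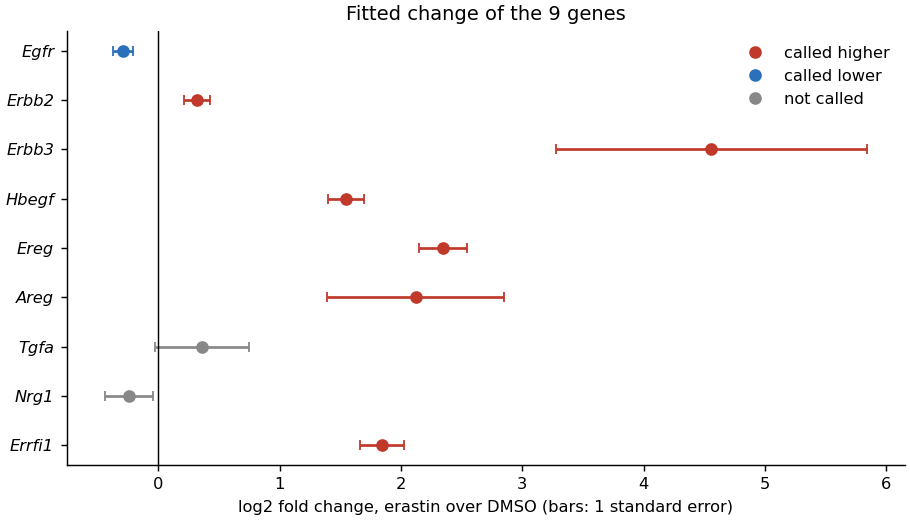
Fitted log2 fold change of the 9 genes, erastin over DMSO, with bars of 1 standard error and colour by call. Erbb3 (4.56) has the widest bar, Ereg, Areg, Errfi1 and Hbegf lie between 1.54 and 2.35, and Egfr (-0.29) and Erbb2 (0.32) lie on opposite sides of 0.

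Errfi1 (ENSMUSG00000028967.6, chr4:150853919-150868892, plus strand) encodes MIG6, a feedback inhibitor that binds the kinase domains of ERBB receptors. It had 38.3, 45.2 and 44.4 CPM in DMSO and 187, 177 and 95.5 CPM with erastin. The groups were far apart, and replicate 3 was again the lowest erastin library. The means of 42.6 ± 3.75 and 153 ± 50.1 CPM (SD, n = 3 each) gave a ratio of 3.59 and a log2 fold change of 1.84 (SE 0.18).

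Within the erastin group the same library was lowest for several of the genes. Erastin replicate 3 stood at 0.71 times the group mean for Hbegf, 0.65 for Ereg, 0.624 for Errfi1 and 0.702 for Erbb3. Among all genes called higher, 45.6% had their lowest erastin value in replicate 3. Nrg1 (0.765 times its mean), Tgfa (0.844) and Erbb2 (0.94) were also lowest in that library, though Nrg1 and Tgfa were not called. Areg (1.02) and Egfr (0.983) were not lowest in it. Against the DMSO mean, erastin replicate 3 taken alone was higher by 1.05 for Hbegf, 1.73 for Ereg and 1.16 for Errfi1 on the log2 scale.

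Levels of different genes were compared per kb of merged exon. In DMSO the order was Errfi1 (11.9 ± 1.05 CPM per kb), Egfr (9.94 ± 0.646), Hbegf (8.58 ± 0.814), Erbb2 (8.10 ± 0.928), Ereg (4.96 ± 1.07), Nrg1 (1.17 ± 0.0604), Tgfa (0.406 ± 0.132), Areg (0.267 ± 0.20) and Erbb3 (0.00837 ± 0.0145; SD, n = 3 each). The ranges of Egfr and Hbegf, of Hbegf and Erbb2, and of Tgfa and Areg overlapped, and the other neighbours in this order did not. With erastin the order was Errfi1 (42.8 ± 14.0 CPM per kb), Ereg (25.2 ± 7.89), Hbegf (25 ± 6.28), Erbb2 (10.1 ± 0.722), Egfr (8.13 ± 0.321), Areg (1.13 ± 0.0206), Nrg1 (0.995 ± 0.215), Tgfa (0.521 ± 0.124) and Erbb3 (0.209 ± 0.0664). The ranges of Errfi1, Ereg and Hbegf overlapped, as did those of Areg and Nrg1. Ereg therefore stood below Erbb2 and Egfr in DMSO and above both with erastin.

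The summed level of 11 ligand genes was 18.3, 14.6 and 14.3 CPM per kb in DMSO and 59.4, 63.9 and 37.0 CPM per kb with erastin, a ratio of means of 3.40. The receptor sum did not move in this way, so the ligand-to-receptor ratio was 0.875 ± 0.157 in DMSO and 2.86 ± 0.676 with erastin (SD, n = 3 each). Hbegf and Ereg made up most of the ligand sum in all libraries. Hbegf went from 54.8% ± 2.53 to 47.0% ± 1.68 of it and Ereg from 31.3% ± 3.01 to 46.8% ± 2.59, while Nrg1 went from 7.54% ± 0.693 to 1.89% ± 0.156 (SD, n = 3 each). A lower share is not a lower level, since the sum itself was larger with erastin. Hbegf stood at 8.58 ± 0.814 CPM per kb in DMSO and 25 ± 6.28 with erastin (SD, n = 3 each). Nrg1 stood at 1.17 ± 0.0604 and 0.995 ± 0.215 (SD, n = 3 each), with overlapping groups. Shares and ratios depend on the length used. With the longest transcript in place of merged exons, Hbegf held 62.9% in DMSO and 58.7% in erastin libraries, and Ereg 21.5% and 34.9%. The ratio of ligand sums was then 3.13. The ligand-to-receptor ratio was then 1.18 ± 0.195 in DMSO and 3.58 ± 0.827 with erastin (SD, n = 3 each).

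**Figure D3:**
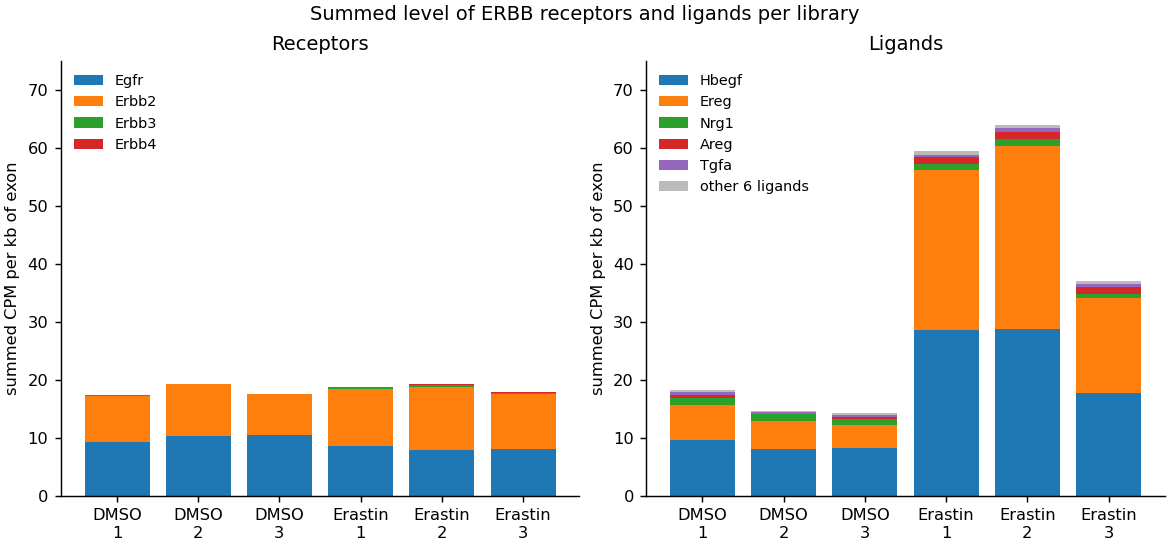
Summed CPM per kb of exon of 4 receptor genes (left) and 11 ligand genes (right) in each library, stacked by gene on the same linear axis. The receptor sum is similar in all 6 libraries, while the ligand sum is 14.3 to 18.3 in DMSO and 37.0 to 63.9 with erastin, mostly Hbegf and Ereg.

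Genes most like Erbb3 were named by the correlation of log2 CPM with it over the 6 libraries, which fall into the 2 treatment groups. They were Gm37498, Eef1e1, Ccdc85a, Srpk1 and Fam71a, with Pearson's r of 0.9965 to 0.9991. Gm37498 and Fam71a shared its level as well, with at most 0.151 CPM in DMSO and 0.622 to 1.56 CPM with erastin. None of the 5 lies on chromosome 10, where Erbb3 is.

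Other genes around the receptors were read from lists written from general knowledge of the pathway. Of 10 genes for ligand processing and release, 2 rose and 3 fell, with a median log2 fold change of -0.057. That is 50% of the list called, against 43.1% of all genes tested. Adam19, a metalloprotease linked to neuregulin release, rose by 0.76 on the log2 scale, with means of 130 ± 6.12 CPM in DMSO and 220 ± 14.3 CPM with erastin (SD and n = 3 for both, edgeR adjusted p = 2.07e-06). Adam9, another metalloprotease, rose by 0.44 (edgeR adjusted p = 0.00021). Adam12, which can release HB-EGF, fell by 0.90 (edgeR adjusted p = 2.22e-06), and Bace1, a protease that cleaves neuregulin 1, fell by 0.83 (edgeR adjusted p = 7.82e-06). Bace1 shares 975 exonic bases with Rnf214 on the opposite strand, and the strand setting of the counting is not known. The main ligand sheddases Adam17 (67.4 ± 4.05 and 69.8 ± 9.15 CPM) and Adam10 (156 ± 2.95 and 139 ± 9.48 CPM; SD, n = 3 each), named here after their values were seen, were not called (edgeR adjusted p = 0.727 and 0.104). Adam17 changed sign in 4 of 16 alternative fits, and Adam10 was called lower in 3 of them.

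Of 15 adaptors and enzymes next to the receptors, 4 rose and 3 fell (median 0.015), or 46.7% called against 43.1% of all genes. The RAS activator gene Sos1 rose by 0.50 and the docking protein gene Gab2 by 0.46, both as log2 fold changes (adjusted p = 0.00149 and 0.00682 by edgeR). Pik3r1, the regulatory subunit of PI3 kinase, fell by 0.51, and the adaptor gene Shc1 by 0.27 (edgeR adjusted p = 0.000555 and 0.00688). Of 13 genes of the RAS, RAF, MEK and ERK cascade, 2 rose and 3 fell (median -0.040), or 38.5% called, again against 43.1%. Mapk3, which encodes the kinase ERK1, fell by 0.63, with means of 92.4 ± 7.87 CPM in DMSO and 59.6 ± 7.45 CPM with erastin (SD and n = 3 for both, edgeR adjusted p = 0.000174). Map2k1 (MEK1) rose by 0.57 and Hras fell by 0.51 (edgeR adjusted p = 0.00012 and 0.000326). These 3 cascade genes kept their direction and call under every scaling run.

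Of 17 genes for receptor turnover and inhibition, 6 rose and 6 fell (median 0.15), or 70.6% called against 43.1% of all genes. Ptpn12, a tyrosine phosphatase, rose by 1.21 on the log2 scale, with means of 53.8 ± 0.257 CPM in DMSO and 124 ± 3.68 CPM with erastin (SD and n = 3 for both, edgeR adjusted p = 3.09e-08). Hgs, which sorts ubiquitin-tagged receptors in endosomes, rose by 0.85 (edgeR adjusted p = 3.38e-06). Spry1, a feedback inhibitor of receptor kinase signalling, fell by 2.05, with means of 123 ± 6.5 CPM in DMSO and 29.7 ± 6.88 CPM with erastin (SD and n = 3 for both, edgeR adjusted p = 2.17e-08), and Lrig3, a membrane protein of a family that acts on ERBB receptors, fell by 1.18 (edgeR adjusted p = 2.39e-06). Of the same family as Lrig3, Lrig2 rose by 0.74 (edgeR adjusted p = 7.69e-05) and Lrig1 was not called (0.15). Both were named after their values were seen. Rnf41, a ubiquitin ligase for ERBB3 and named after its values were seen, rose by 0.42 (edgeR adjusted p = 0.00258).

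The genes of a published score of ERK output moved the most among these lists: 7 of 10 rose and 2 fell, with a median log2 fold change of 0.91, against shares of 21.6% and 21.5% among all genes. Dusp4, a phosphatase of ERK, rose by 2.42, with means of 70.2 ± 5.86 CPM in DMSO and 375 ± 55.8 CPM with erastin (SD and n = 3 for both, edgeR adjusted p = 9.28e-10). Epha2, a receptor of the ephrin family, rose by 1.57 and Spry2, a feedback inhibitor, by 1.19 (edgeR adjusted p = 3.99e-08 and 2.43e-07). The other risers were Phlda1, Etv5, Spry4 and Dusp6, by 0.68 to 1.81. Ccnd1, the gene of cyclin D1, which shares 1100 exonic bases with LTO1 on the opposite strand, fell by 0.59 (edgeR adjusted p = 8.16e-06), and Epha4 fell by 0.43 (edgeR adjusted p = 0.00455). Etv4 was not called. Phlda1, Etv5, Spry4, Dusp6, Epha4 and Etv4 were named after their values were seen. The sprouty genes thus split, with Spry1 lower and Spry2 and Spry4 higher under every scaling run.

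**Figure D4:**
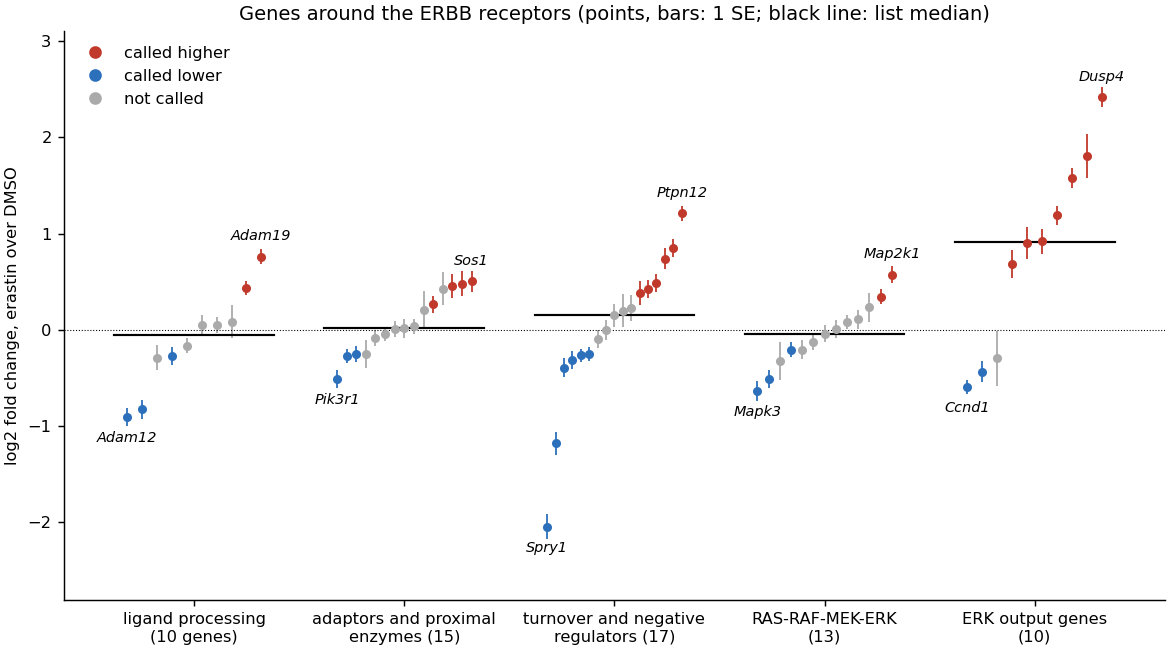
Log2 fold change (erastin over DMSO) of each gene in 5 lists, sorted within a list, with bars of 1 standard error, colour by call and a black line at the list median. The other lists centre near 0 with genes on both sides, and 7 of the 10 ERK output genes lie above 0.

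Markers were used to check the labelled cell type and other cells that the cultures could hold. All 10 fibroblast markers passed the filter; their summed level was 35400 to 38500 CPM in DMSO and 25500 to 26900 CPM in erastin libraries, and 8 of them fell. In bulk RNA, fewer cells of a type and less RNA per cell cannot be told apart. Of 10 markers of epithelial cells and keratinocytes, in which Erbb3 is usually abundant, 9 had at most 10 reads in every library. Krt15, 1 of these, had 0 reads. The other marker, Epcam, had 7, 1 and 2 reads in DMSO and 5, 14 and 3 with erastin. Cldn4 had 0 reads in each DMSO library and 6, 8 and 0 with erastin. For Cdh1 these were 1, 0 and 10 in DMSO and 5, 1 and 1 with erastin. Epcam, Cldn4 and Cdh1 were named after their values were seen. The 10 markers summed to 0.443 to 1.21 CPM in DMSO and 0.622 to 1.56 CPM with erastin. The 8 Schwann and neural crest markers summed to 6.15 to 7.86 and 5.96 to 6.59 CPM, and the neural crest factor Sox10 had 1 to 5 reads in every library. Within this list the Schwann cell marker S100b fell from 2.0 ± 0.473 to 0.458 ± 0.168 CPM (SD, n = 3 for both; edgeR adjusted p = 0.0084), while Mbp, at 2.89 ± 0.856 and 4.73 ± 0.694 CPM, was not called (edgeR adjusted p = 0.102). Both were named after their values were seen. The 5 melanocyte markers summed to 0.453 to 0.998 and 0.539 to 1.24 CPM. Macrophage markers (22.4 to 43.0 and 28.2 to 58.5 CPM) overlapped between groups. The sum of 5 endothelial markers was 2.66 to 5.36 CPM in DMSO and 8.50 to 11.0 with erastin, with Kdr the 1 marker called higher. That of 5 skeletal muscle markers was 35.8 to 45.4 and 65.1 to 68.8 CPM, almost all of it Des, which was called higher. The part of these shifts in the values above was not tested.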

How the data were processed

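RNA depleted of ribosomal RNA was sequenced on an Ion Proton, per the labels' protocols. The deposited values are whole-number read counts per gene, not normalized by the authors. The submitters' processing notes name HTSeq 0.9.1, SAMtools and the build mm10; the aligner, annotation and strand setting are not given in the sources used here, so reads of overlapping genes cannot be told apart. Beside the overlaps named above, opposite-strand genes share exonic bases with Nrg1 (482), Tgfa (118), Spry1 (710) and Phlda1 (727), among others. Columns were matched to libraries through sample numbers in the labels, and 0 columns were left unused. Symbols, positions and exon lengths came from GENCODE M21 (GRCm38) for 42462 of 43346 identifiers.

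R 4.3.3 with limma 3.58.1 and edgeR 4.0.16 was used. Genes were filtered by filterByExpr (minimum count 10, total 15), which left 14000, scaled by TMM factors and tested by the quasi-likelihood test with treatment as the only term over all 6 libraries. P-values were adjusted by the Benjamini-Hochberg method across the 14000 genes, and a gene was called under 0.05. Standard errors came from the fitted weights. The procedure was tested on simulated data. CPM uses the TMM-scaled library sizes. Totals of 13333911 to 20509970 reads set the precision of low counts.

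The members and lists were chosen with earlier results of these data known. The text names the 9 members, the 7 other family genes, the 4 genes of each other list with the smallest p-value and genes whose call or direction changed between settings. It also names the 5 genes most correlated with Erbb3. Others are said to be named after their values were seen, and some genes that these rules select are not reported here. Alternatives were RLE, upper-quartile and total-count scaling, 2 filters, a replicate block, a GC and length offset (mgcv 1.9.3), thinning, DESeq2 1.42.0, a larger prior count, another length and leaving out each library.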

Additional observations from a re-analysis of the deposited data

How the results depend on the processing

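Between 5 and 7 of the 9 members were called in 16 alternative fits, which called 4802 to 6104 genes in all. The lowest count, 5, came without erastin replicate 1 (4802 of 14278 genes called) and without erastin replicate 2 (5271 of 14465). In the main fit 6028 of 14000 genes were called. Hbegf, Ereg and Errfi1 were called in all 16, Erbb3 in the 15 that tested it (the filter of 1 CPM removed it), and Tgfa and Nrg1 in 0. These fits reuse the comparison that chose the set, so such counts describe the settings and are no support for the members. In the main fit Erbb3 and Areg passed the filter on low counts only through their erastin libraries, where they were higher. Upper-quartile factors gave 0.268 for Erbb2 and scaling by total count -0.224 for Egfr, neither called. In the 6 fits without 1 library, Erbb2 ran from 0.239 to 0.409 and Areg from 1.57 to 2.70, each called in 2 of the 6. The number of called genes outside the set in the family was 0 to 1 (Erbb4). With upper-quartile factors 5 genes of ligand processing were called lower in place of 3. The causes of these changes were not tested. The length of the longest transcript moved the ligand shares given above, and those of Nrg1 to 9.88% (DMSO) and 2.69% (erastin) and of Nrg3 to 0.168% (erastin).

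With the replicate number as a block 7 members and 5882 genes were called. Deviations of equally numbered libraries had correlations of -0.0055 to 0.0401. The labels do not say whether equally numbered libraries share a dish, an embryo or a preparation. With 3 libraries per group these correlations cannot decide it.

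Of 66 pathway genes tested, 37 kept call and direction throughout. The call changed in at least 1 setting for 13, among them Adam10, Rhbdf1, Furin, Grb2, Sos2, Pik3r2, Pik3cb, Socs5, Ptpn1, Spred2, Nras and Rasa1. Another 16 were called in no setting and changed sign around 0, between -0.201 and 0.389, among them Adam17, Araf, Braf, Cbl, Crk, Frmd8, Map2k2, Nck1, Nf1, Pik3ca, Plcg1, Ptpn11, Rhbdf2, Socs4 and Src. Depth limits the genes near the floor, among them Erbb3, Areg, Erbb4, Egf, Epgn, Nrg2, Nrg3 and Nrg4, where a few reads set the values.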
